A study of Mus musculus with 30 samples.

Results

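The comparison described here was casein restriction: the livers of 6 mice fed a diet with 5% casein (Cas-5%) against the livers of 6 mice fed a diet with 20% casein (Cas-20%). These 12 livers were chosen by their labels from the 30 livers of 5 diets in the series. All were from male C57BL6/J mice that arrived at 9 weeks of age and were first fed Cas-20%. At 12 weeks of age the Cas-5% mice were changed to their diet, whereas the Cas-20% mice stayed on theirs. From then each mouse ate its assigned diet for 12 weeks and was killed at 6 months after a 4 h fast. The Cas-20% diet held 0.57 g methionine and 0.41 g cysteine per 100 g, and the Cas-5% diet held 0.15 g and 0.1 g, so total protein and sulfur amino acids fell together and cannot be told apart within the casein diets. Cystine had been added to both. The other diets were Soy-20%, Soy-20% + SAA (soy with added sulfur amino acids) and Soy-10% (11.5% protein). They are used only beside the spread of the control livers and where the casein effect was set beside a soy effect. The soy mice were first fed Soy-20%. Each diet had 10 singly housed mice, of which 6 livers were sequenced. Counts came from 3′ RNA sequencing, in which reads lie near the 3′ end of a transcript and counts do not scale with its length.

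The liver reads a shortage of dietary amino acids through several routes. Uncharged transfer RNAs activate the kinase GCN2, which phosphorylates the initiation factor eIF2 and favours translation of the transcription factor ATF4, and ATF4 binds C/EBP-ATF response elements in genes for amino acid synthesis, transport and tRNA charging. Hepatocytes also secrete most plasma proteins, convert nitrogen from amino acids into urea in the periportal part of the lobule, and switch between making and oxidizing fatty acids under the control of insulin, SREBP-1c and PPARα.

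Library totals ranged from 10222878 to 11910981 counts for Cas-20% and from 7694015 to 12704890 for Cas-5%, with a difference that did not pass a 2-sided test (exact permutation, p = 0.262). The 10 most abundant genes took 29.4 to 34.1% of the counts on Cas-20% and 24.8 to 27.6% on Cas-5% (exact permutation p = 0.00217, the smallest value that 6 livers against 6 allow). Scaling by library totals alone, in place of the trimmed mean of M-values, raised the median log2 fold change of all genes from 0.02 to 0.20, a shift of 0.18, and turned the split from 1397 higher and 1611 lower to 3849 higher and 812 lower. Directions below are thus relative to the bulk of the genes, and the split of a list under library totals is given where its majority turned. Hepatocyte markers were abundant in every library, and their summed share was 7.27 to 8.07% of normalized counts on Cas-20% and 8.43 to 10.2% on Cas-5%. Of 11 tested members, however, 3 were called higher and 2 lower, and 7 had a negative log2 fold change (median -0.13). Without Cas-20% livers 4 to 6 the count was 2 higher and 3 lower. Summed shares are of each library's total and weigh the most abundant members, so they do not follow the scaling used for the calls. Stellate cell and fibroblast markers together took 0.05 to 0.0628% and 0.0647 to 0.0817%, with 4 of 18 tested members higher and 0 lower. Sinusoidal endothelial markers took 0.0521 to 0.0589% and 0.0658 to 0.0735%, with 5 of 19 higher and 0 lower (3 and 1 without Cas-20% livers 4 to 6). The shares called, 22.2% of stellate and 26.3% of sinusoidal markers, were near the 24.9% of all genes tested. Red blood cell markers were lower at 4 of 6 (1 of 6 without Cas-20% livers 4 to 6) and the single pancreatic acinar marker tested at 1 of 1. The part of these cell types in the results was not tested, and in bulk liver fewer cells of a type and less RNA per cell cannot be told apart.

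The 6 Cas-20% livers did not form a single cluster. The first principal component of the 12 livers held 47.8% of the variance and separated the diets, whereas the second held 13.3% and separated Cas-20% livers 1 to 3 (scores of -10.1, -13.2 and -15.3) from livers 4 to 6 (7.19, 17.6 and 19.6), with the Cas-5% livers in between. The following genes were named after their values were seen. *Mt1*, a metallothionein that binds zinc and copper, had 188, 209.7 and 181 normalized counts in Cas-20% livers 1 to 3 and 2436, 1510 and 1980 in livers 4 to 6, against 345 to 545 on Cas-5%. *Cyp4a14*, a fatty acid hydroxylase induced by PPARα, had 501, 970.5 and 344 in livers 1 to 3 and 3860, 5447 and 6843 in livers 4 to 6. *Angptl4*, an inhibitor of lipoprotein lipase, had 147, 75.0 and 195 and then 564, 647 and 821. Clock genes moved with the same split: *Arntl* (BMAL1) had 44.0, 59.8 and 70.6 in livers 1 to 3 and 19.3, 15.9 and 22.1 in livers 4 to 6, and *Usp2* had 124, 108 and 100.2 and then 397, 512 and 359.9. *Ppp1r3b*, a glycogen-targeting subunit of protein phosphatase 1, had 1539, 1316 and 1356 and then 508, 419 and 415. The clock genes also separated Soy-20% + SAA livers 1 to 3 from 4 to 6. There *Arntl* had 37.3, 39.8 and 30.0 and then 5.75, 2.80 and 1.54, and *Usp2* had 152, 56.3 and 113 and then 399.6, 325 and 471. *Mt1* of these soy livers overlapped, and on Cas-5%, Soy-20% and Soy-10% both clock genes overlapped. The collection times of the livers are not in the labels, and the cause of the split was not tested. These sets of Cas-20% livers are not groups of the study, so no test was made between them. Lists whose majority turned on them are given with and without each set.

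**Figure D1:**
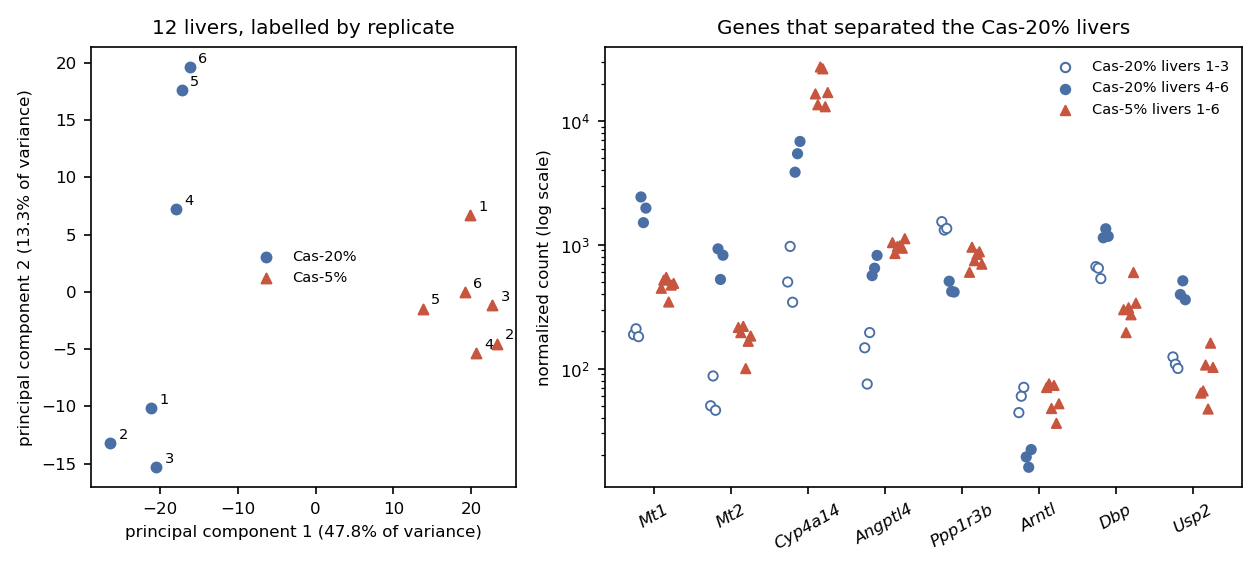
Principal components of the 12 livers on the left (scores on components 1 and 2, replicate numbers beside the points) and normalized counts on a log axis of 8 genes on the right, with open circles for Cas-20% livers 1 to 3, filled circles for Cas-20% livers 4 to 6 and triangles for Cas-5%. Metallothionein and PPARα target transcripts of Cas-20% livers 1 to 3 lay below those of livers 4 to 6.

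Casein restriction changed 3008 of 12076 genes at an adjusted p of 0.05 or less in edgeR (24.9%), of which 1397 rose (11.6% of genes tested) and 1611 fell (13.3%). The counts of lists above and below are to be read beside these shares, and a list near them moved as often as genes at large. At an absolute log2 fold change of at least 1 there were 420 genes (3.48%), 179 higher and 241 lower. Most changes were modest: 249 of the called genes moved by less than 0.25, 1367 by 0.25 to 0.5, 972 by 0.5 to 1, 333 by 1 to 2 and 87 by 2 or more on the log2 scale. The share called rose with abundance, from 14.4% in the least abundant to 41.8% in the most abundant of 5 equal bins of genes. Among the 100 most abundant genes on Cas-20%, 43 fell and 11 rose, with a median log2 fold change of -0.18. They were picked by their level on Cas-20% alone, a choice that favours falls. The livers of the 2 diets did not overlap for 1555 genes (12.9%), and 1275 genes (10.6%) were called in the same direction in every alternative fit, those without either set of Cas-20% livers included. Every gene described from here on, other than those named after their values were seen, was called in all of those fits and kept its direction under library totals alone. All log2 fold changes are Cas-5% over Cas-20% with their standard error (SE), and counts are normalized counts given as the lowest, median and highest of 6 livers.

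The 12 largest rises, among protein-coding genes called in every fit, with livers that did not overlap and a mean of at least 20 normalized counts in 1 diet, included *Phgdh*, *Psat1*, *Asns* and *Slc34a2*, and the other members were also low or near 0 on Cas-20%. *Lepr* (chr4:101717404-101815352, GRCm38), the leptin receptor, had 5.79, 11.1 and 27.9 normalized counts on Cas-20% and 156, 196 and 271 on Cas-5%. The log2 fold change of *Lepr* was 3.76 ± 0.26 (SE, adjusted p = 3.81e-08). *Nupr1* (chr7:126623249-126630861), a small nuclear protein induced by cellular stress, went from 6.08, 13.2 and 24.9 to 101, 118 and 134, a log2 fold change of 3.09 ± 0.19. *Aldh1l2* (chr10:83487450-83534140), the mitochondrial 10-formyltetrahydrofolate dehydrogenase, went from 0, 2.52 and 4.98 to 21.1, 32.0 and 53.4 (3.71 ± 0.38). *Aldh1l1*, the cytosolic counterpart, fell from 3577, 3927 and 5365 to 1209, 1414 and 1568 (-1.53 ± 0.10).

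Several other leading rises were of low abundance. *Pcp4l1* (chr1:171173262-171196268), a Purkinje cell protein relative, had 6.08, 24.4 and 29.9 on Cas-20% and 174, 209 and 339 on Cas-5%. *Cyp2c69* (chr19:39842814-39886799), a cytochrome P450 that is higher in female than in male mouse liver, had 3.04, 10.8 and 19.9 against 56.1, 149 and 184. *Slc30a3* (chr5:31086106-31108237), a zinc transporter, had 2.90, 5.76 and 6.13 against 22, 50.3 and 76.6. The log2 fold changes were 3.47 for *Pcp4l1*, 3.52 for *Cyp2c69* and 3.26 for *Slc30a3*. *Rnf225* (chr7:12927416-12931072), a RING finger protein, had 0, 1.01 and 3.04 against 16.3, 22.2 and 33.5. *Ttn* (chr2:76703980-76982547), the giant elastic protein of the sarcomere, had 0.996, 2.01 and 4.09 against 14.5, 19.9 and 35.5, so *Rnf225* and *Ttn* rest on few reads.

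The 12 largest falls by the same rule included *Chrna4*, *Dct* and *Acpp* beside the following. *Nnmt* (chr9:48591877-48605153), nicotinamide N-methyltransferase, which spends S-adenosylmethionine, had 529, 861 and 1534 normalized counts on Cas-20% and 22.9, 27.6 and 38.6 on Cas-5%, a log2 fold change of -4.95 ± 0.26 (adjusted p = 3.31e-09). *Lrtm1* (chr14:29018208-29033645), a leucine-rich repeat transmembrane protein, had 158, 262 and 498 against 2.91, 4.86 and 18.5 (-5.18 ± 0.39). *Hamp2* (chr7:30922372-30924681), a hepcidin paralog, had 967, 1404 and 3130 against 31.7, 101 and 222 (-3.96 ± 0.36). *Orm1* (chr4:63344560-63348163), the acute phase carrier α1-acid glycoprotein, had 5551, 6201 and 7306 against 320.3, 439 and 1337 (-3.38 ± 0.28). *Cyp4a12b* (chr4:115411624-115439034), a male-biased fatty acid hydroxylase, had 567, 1252 and 1977 against 38.6, 135 and 174. *Sulf2* (chr2:166073089-166155663), an endosulfatase that edits heparan sulfate, had 92.0, 142 and 169 against 7.91, 12.6 and 17.6. *Cib3* (chr8:72204335-72212837), a calcium-binding protein, *Gpx6* (chr13:21312125-21319624), a glutathione peroxidase, and *1810046K07Rik* (chr9:51289686-51328917) fell from medians of 79.9, 52.9 and 26.5 to 3.63, 4.62 and 0.925. *Cib3* had 16.6 in its lowest and 184 in its highest Cas-20% liver, and its fold change was -3.01 without Cas-20% livers 1 to 3 and -5.54 without livers 4 to 6.

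**Figure D2:**
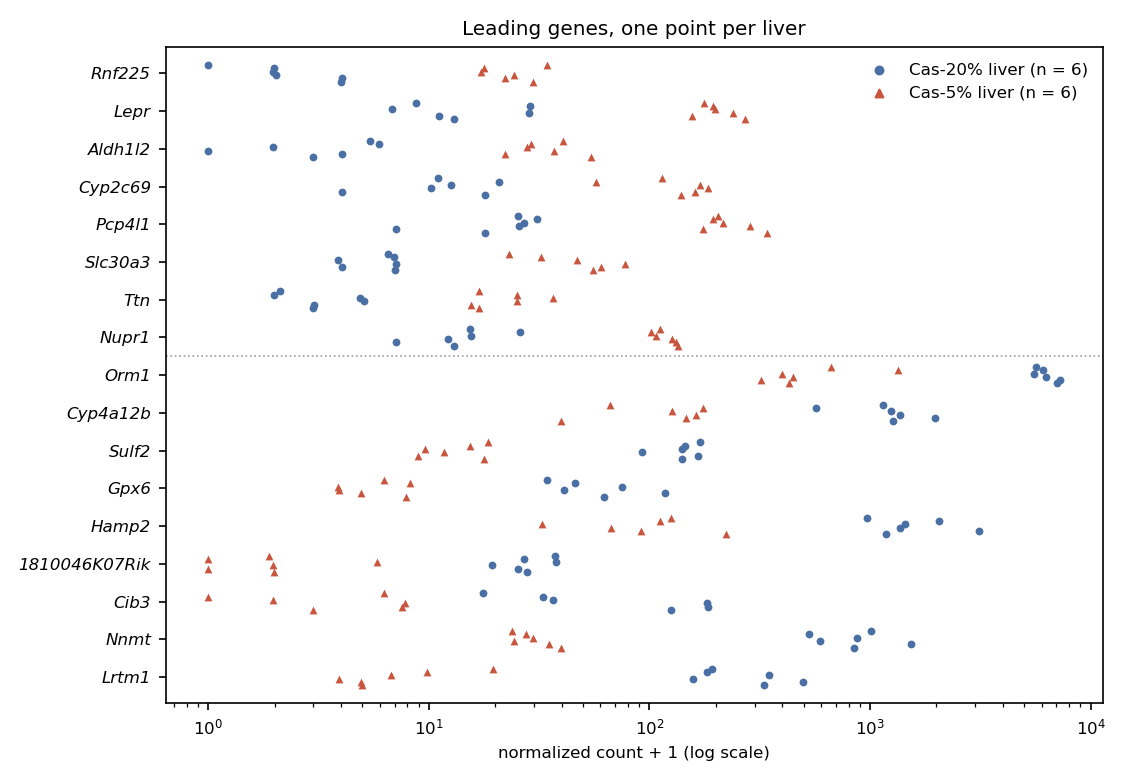
Normalized counts plus 1 on a log axis of the leading genes, with 1 point for each of the 6 Cas-20% livers (circles) and 6 Cas-5% livers (triangles); genes above the dotted line rose and those below it fell. The rule required that the diets not overlap, and *Lepr* lay between 156 and 271 on Cas-5% against 5.79 to 27.9 on Cas-20%.

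Many genes of tRNA charging carry C/EBP-ATF response elements, so the RefSeq promoter windows (250 bases before to 50 bases after each start, GRCm38.p6) were searched for the core of that element, TGATGNAA, on both strands (TTNCATCA on the other). The motif was in 1304 of 32851 windows (3.97%). Of 9034 tested protein-coding genes matched to a window by symbol, 51 of 1018 that rose held it (5.01%), as did 41 of 1243 that fell (3.3%) and 166 of 6773 not called (2.45%). Above a log2 fold change of 1 the counts were 11 of 109 (10.1%), and 8 of 166 among falls of the same size (4.82%). These shares are a description with no test, and a match is not a binding site. Of 193 genes given by the rule for named genes, 147 had a window and 9 held the motif. The windows of *Nupr1*, *Slc7a7* (an exporter of cationic amino acids), *Pck2* (mitochondrial phosphoenolpyruvate carboxykinase) and *Yars* (tyrosyl-tRNA synthetase), which rose, and of *Gpam* (glycerol-3-phosphate acyltransferase), which fell, are printed 5′ to 3′ on the strand of the gene with each motif in capitals, to show where it lay and that it was not restricted to rising genes.
Nupr1 (chr7:126625421-126625720, minus strand): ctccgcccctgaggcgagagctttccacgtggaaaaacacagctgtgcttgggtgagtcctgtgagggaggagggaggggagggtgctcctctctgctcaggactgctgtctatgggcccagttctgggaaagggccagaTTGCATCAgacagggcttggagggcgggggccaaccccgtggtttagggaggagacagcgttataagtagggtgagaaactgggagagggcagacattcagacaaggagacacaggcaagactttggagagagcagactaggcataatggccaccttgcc
Slc7a7 (chr14:54417895-54418194, minus strand): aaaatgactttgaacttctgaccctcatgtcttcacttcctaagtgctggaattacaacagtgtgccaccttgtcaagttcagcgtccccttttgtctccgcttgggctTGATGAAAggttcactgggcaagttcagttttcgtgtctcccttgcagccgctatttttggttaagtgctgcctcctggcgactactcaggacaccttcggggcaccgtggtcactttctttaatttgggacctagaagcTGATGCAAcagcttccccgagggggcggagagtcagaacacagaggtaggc
Pck2 (chr14:55540016-55540315, plus strand): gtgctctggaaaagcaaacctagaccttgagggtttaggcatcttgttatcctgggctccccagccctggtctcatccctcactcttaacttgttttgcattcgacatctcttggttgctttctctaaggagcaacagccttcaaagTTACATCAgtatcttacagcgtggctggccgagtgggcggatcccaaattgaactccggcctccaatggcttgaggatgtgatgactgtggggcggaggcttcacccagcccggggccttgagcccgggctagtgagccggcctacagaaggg
Yars (chr4:129189653-129189952, plus strand): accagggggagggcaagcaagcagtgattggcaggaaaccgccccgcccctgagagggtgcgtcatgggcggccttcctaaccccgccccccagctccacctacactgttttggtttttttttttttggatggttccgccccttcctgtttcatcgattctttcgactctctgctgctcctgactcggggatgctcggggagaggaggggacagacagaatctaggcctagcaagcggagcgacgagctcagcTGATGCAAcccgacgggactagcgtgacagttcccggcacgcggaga
Gpam (chr19:55127189-55127488, minus strand): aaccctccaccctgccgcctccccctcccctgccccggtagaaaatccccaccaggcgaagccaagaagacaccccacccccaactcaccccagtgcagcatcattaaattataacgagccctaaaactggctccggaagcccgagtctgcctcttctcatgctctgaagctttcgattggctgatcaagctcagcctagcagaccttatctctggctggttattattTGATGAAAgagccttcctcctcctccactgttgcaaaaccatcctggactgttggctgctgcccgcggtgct
The motif of *Nupr1* and that of *Pck2* were on the opposite strand, 110 and 103 bases before the RefSeq start of the window, that of *Gpam* was 22 bases before it and that of *Yars* lay after it. *Slc7a7* held 2 in this window, 141 and 1 bases before its start. The start of the *Nupr1* window lies inside the longer span that the files give for this gene. The casein effects were log2 fold changes of 2.04 for *Slc7a7*, 3.09 for *Nupr1*, 1.45 for *Pck2* and 0.72 for *Yars*, against -2.01 for *Gpam*.

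Of 23 cytosolic aminoacyl-tRNA synthetases 9 rose and 0 fell, with a median log2 fold change of 0.17 against 0.02 for all genes. *Cars*, which charges cysteine, had 139, 173 and 215 normalized counts on Cas-20% and 297, 319 and 344 on Cas-5% (0.89 ± 0.10), and *Yars* had 112, 149 and 188 against 204, 239.9 and 283, with fold changes of 1.0 without Cas-20% livers 1 to 3 and 0.47 without livers 4 to 6. Ribosome biogenesis and RNA polymerase I genes rose at 16 of 45 and fell at 1 (median 0.20). Among them *Nop58*, a core protein of the snoRNPs that guide rRNA methylation, had 220.1, 246 and 296 against 374, 405 and 449.5, and *Tsr1*, a factor of small subunit maturation, rose by a log2 fold change of 0.66 ± 0.13. With Cas-20% livers 4 to 6 left out, 7 of the 45 rose. Translation factors rose at 11 of 48 and fell at 1, with *Eif4ebp1*, the cap-binding inhibitor 4E-BP1, at 521, 567 and 585 against 808, 842 and 1045 and *Eif2s2*, the β subunit of eIF2, at 0.56 ± 0.10.

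Of 74 mitochondrial ribosomal proteins 2 rose and 15 fell (median -0.10), *Mrps27* among the falls at 132, 142 and 172 against 94.2, 109.7 and 116. The majority of this list turned to 8 higher and 1 lower under library totals alone. Mitochondrial synthetases were called at 1 higher and 1 lower of 17, and mitochondrial protein import genes at 0 and 5 of 27 (3 and 0 under library totals).

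Cytosolic chaperones rose at 11 of 29 and fell at 2 (median 0.12). *Hspa1b*, an inducible HSP70, had 14.2, 30.8 and 43.2 on Cas-20% and 103, 147 and 177 on Cas-5% (2.33 ± 0.20), and *Hspb1* (HSP27) rose by 1.10 ± 0.19. Chaperones and folding enzymes of the endoplasmic reticulum rose at 2 of 26 and fell at 0, but without Cas-20% livers 1 to 3 the count was 9 higher and 0 lower, and without livers 4 to 6 it was 1 higher and 2 lower. *Ero1lb*, which reoxidizes protein disulfide isomerase, was called under each of these and had 108, 145 and 159 against 263, 293 and 346. Regulators of the unfolded protein response were divided, 4 higher and 4 lower of 29 (5 and 2 without Cas-20% livers 1 to 3, 3 and 5 without livers 4 to 6, 12 and 1 under library totals), with *Derl3*, a component of ER-associated degradation, at 5.01, 10.0 and 12.6 against 22.4, 36 and 62.5 and *Edem1*, a mannosidase-like protein of the same process, lower at -0.47 ± 0.09. Proteasome subunits fell at 6 of 42 and rose at 1, a majority that turned to 10 higher and 1 lower under library totals. The 16.7% of them called was under the 24.9% of all genes.

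Transporters of amino acids were divided, 8 of 31 higher and 9 lower (8 and 10 without Cas-20% livers 1 to 3, 8 and 7 without livers 4 to 6, 11 and 5 under library totals). *Slc7a7* had 14.4, 24.2 and 34.0 on Cas-20% and 92.2, 102 and 114 on Cas-5% (2.04 ± 0.15), and *Slc7a1*, the widely expressed cationic amino acid transporter, had 11, 12.4 and 13.9 against 32.6, 47.2 and 65.9 (1.93 ± 0.21). *Slc7a2*, the main cationic carrier of hepatocytes, instead fell from 3853, 4484 and 5929 to 1517, 1960 and 2564 (-1.17 ± 0.13). *Slc38a3*, which moves glutamine across the hepatocyte membrane, fell from 5277, 5520 and 6647 to 2306, 2574 and 2729 (-1.16 ± 0.07). Among 40 genes of amino acid sensing by mTORC1 6 rose and 4 fell, against 3 and 5 without Cas-20% livers 1 to 3, 3 and 4 without livers 4 to 6 and 12 and 1 under library totals. Those called in every fit included *Sesn2*, a leucine sensor and ATF4 target, at 0.80 ± 0.13 and its paralog *Sesn3* at -0.91 ± 0.11.

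**Figure D3:**
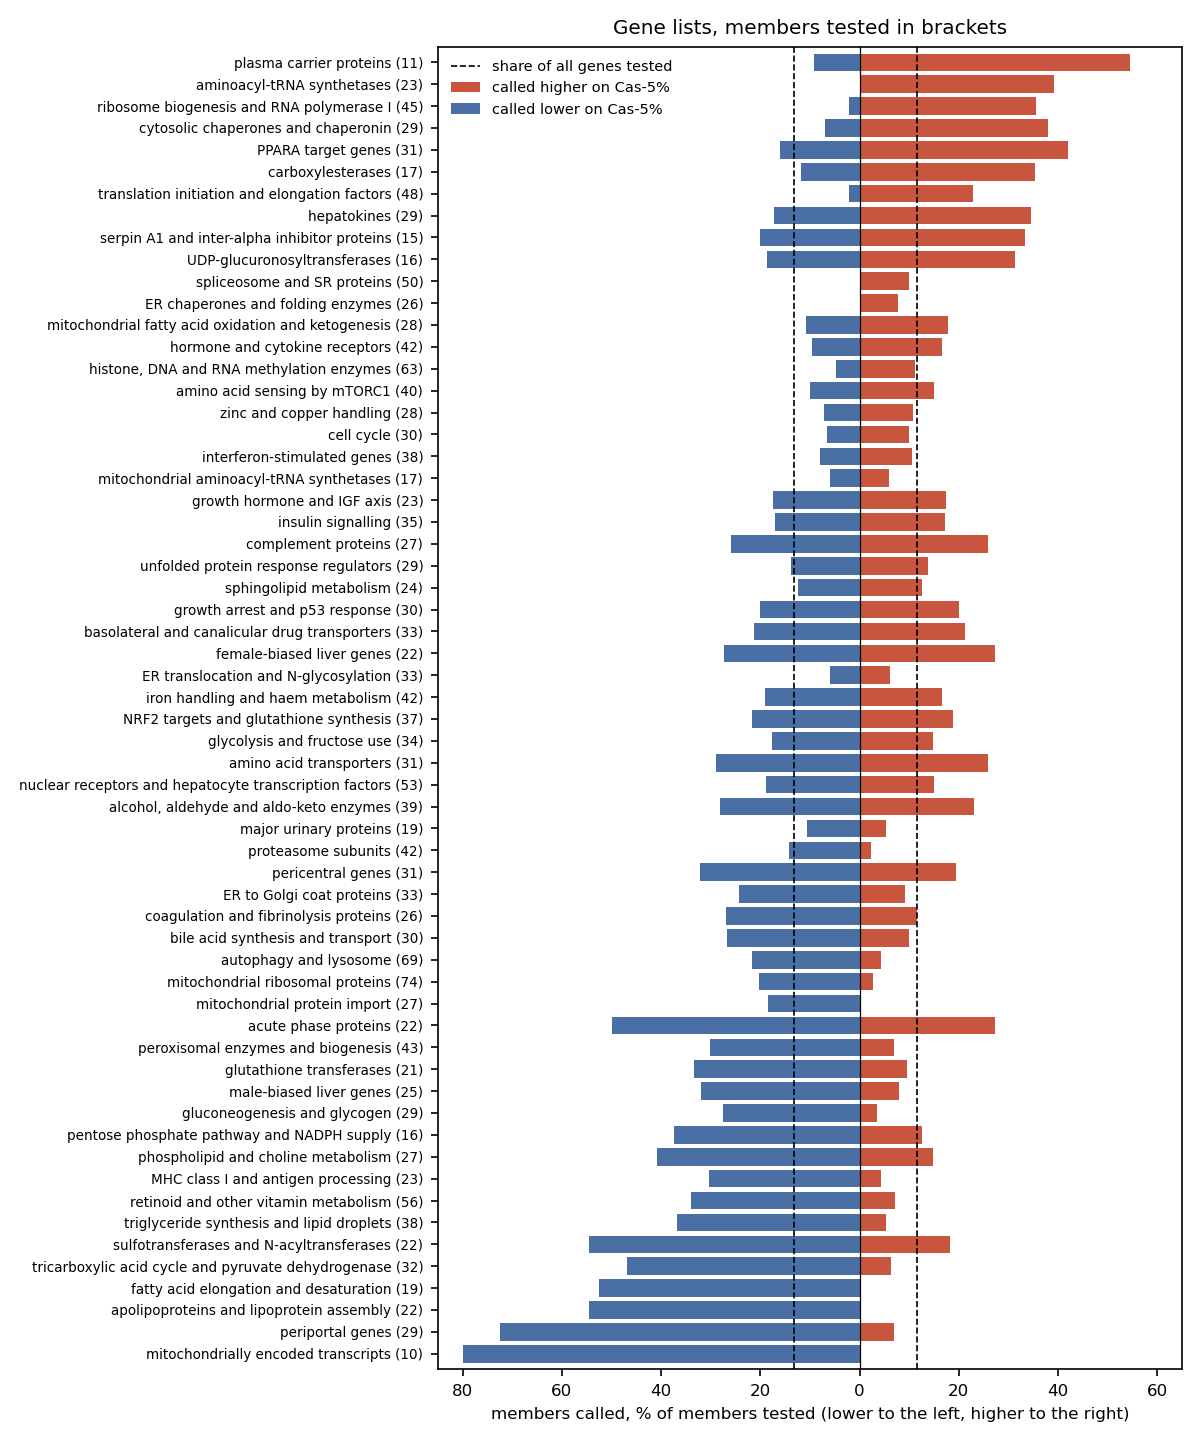
Members called higher (to the right) and lower (to the left) on Cas-5%, as a percentage of the members tested, for every list of at least 10 tested members other than cell type markers, with the number tested in brackets. Dashed lines mark the shares of all 12076 genes tested, 11.6% higher and 13.3% lower, and the lists at the bottom, mitochondrially encoded transcripts (0 of 10 higher, 8 lower) and periportal genes (2 of 29 higher, 21 lower), lay farthest to the left.

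Most periportal genes fell. Of 29 tested, 21 fell and 2 rose (median -0.73), and 19 and 21 fell without either set of Cas-20% livers. This list holds the urea cycle and several enzymes of amino acid breakdown, which overlap with sets that were chosen with these data in view. The summed share of the list nevertheless rose, from 5.74 to 6.37% of normalized counts on Cas-20% to 6.66 to 8.02% on Cas-5%. Its largest count was that of *Alb*, albumin, named after its values were seen, at 430400 to 490900 against 502800 to 661200. *Cps1*, the entry enzyme of the urea cycle, had 8139, 10770 and 13500 normalized counts on Cas-20% and 3149, 3948 and 5683 on Cas-5% (-1.40 ± 0.15). *Agxt*, alanine-glyoxylate aminotransferase, had 1018, 1286 and 1504 against 293, 313 and 339.8 (-2.0 ± 0.09). *Mfsd2a*, a lysophosphatidylcholine transporter, had 447, 946 and 1213 against 21.1, 103 and 141 and *Aldh1b1*, a mitochondrial aldehyde dehydrogenase, had 691, 765 and 1971 against 115, 144 and 190.1. *Hsd17b6*, a steroid dehydrogenase, was 1 of the 2 rises in this list, from 796, 959.5 and 1275 to 2088, 2422 and 3913.

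Pericentral genes were called at 6 of 31 higher and 10 lower (median 0.01), at 6 and 10 without Cas-20% livers 1 to 3, at 11 and 8 without livers 4 to 6 and at 12 and 7 under library totals, so no direction is given for the list. Among the falls were *Oat*, ornithine aminotransferase, at 5982, 8365 and 11350 against 1334, 1543 and 1768 (-2.46 ± 0.14) and *Rhbg*, an ammonium transporter, at 72.1, 93.8 and 114 against 21.1, 27.4 and 60.1. *Avpr1a*, the hepatic vasopressin receptor, rose by 1.40 ± 0.24, and *Tbx3*, a transcription factor of pericentral hepatocytes, rose from 282, 487 and 519 to 623, 866 and 986 (0.87 ± 0.14). The fold change of *Avpr1a* was 2.16 without Cas-20% livers 1 to 3 and 0.89 without livers 4 to 6.

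Transcripts made from the mitochondrial genome fell at 8 of 10 tested and rose at 0 (median -0.64, and 8 lower also under library totals). *mt-Co1*, a subunit of cytochrome c oxidase, had 20300, 23370 and 30520 against 11780, 13870 and 15200 (-0.81 ± 0.10), and *mt-Rnr1*, the small ribosomal RNA, had 125000, 161000 and 242300 against 75540, 99190 and 119500. The diets did not overlap for either. In the tricarboxylic acid cycle and around pyruvate dehydrogenase 15 of 32 genes fell and 2 rose (median -0.23). *Sdhb*, a subunit of succinate dehydrogenase, had 3244, 3588 and 3925 against 1931, 2153 and 2559, and *Mdh1*, cytosolic malate dehydrogenase, had 4766, 5075 and 5496 against 2743, 3219 and 3494 (-0.68 ± 0.07). *Mpc2*, a subunit of the mitochondrial pyruvate carrier, rose by 0.42 ± 0.09.

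Genes of fatty acid oxidation depended on which control livers were used. Of 31 PPARα target genes 13 rose and 5 fell with all livers (median 0.43), 9 rose and 8 fell without Cas-20% livers 1 to 3 (median -0.05), and 19 rose and 2 fell without livers 4 to 6 (median 0.67). Mitochondrial fatty acid oxidation and ketogenesis genes showed the same dependence, with 5 higher and 3 lower of 28 in all, 2 higher and 5 lower without livers 1 to 3, and 17 higher and 3 lower without livers 4 to 6. Peroxisomal genes were called at 3 higher and 13 lower of 43 with all livers, at 3 and 16 without livers 1 to 3, at 12 and 9 without livers 4 to 6 and at 10 and 7 under library totals. The direction of these 3 lists therefore cannot be stated from these livers. Single genes did hold: *Cyp4a14* had 344, 2415 and 6843 on Cas-20% and 13050, 16780 and 27340 on Cas-5%, with log2 fold changes of 2.68 ± 0.58 in all, 1.82 without livers 1 to 3 and 4.97 without livers 4 to 6. *Crot*, peroxisomal carnitine octanoyltransferase, had 1845, 2492 and 3536 against 4462, 5329 and 5833 (1.04 ± 0.13), *Eci2*, an enoyl-CoA isomerase, rose by 0.83 ± 0.15 (0.48 without livers 1 to 3 and 1.26 without livers 4 to 6), and *Acsl5*, an acyl-CoA synthetase, fell by 0.69 ± 0.12 on the log2 scale. *Acot2*, a mitochondrial acyl-CoA thioesterase, had 42.5, 104 and 238 against 203, 298 and 360.0, with 4 of 6 Cas-5% livers above every Cas-20% liver and fold changes of 0.65 and 2.3 without either set.

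**Figure D4:**
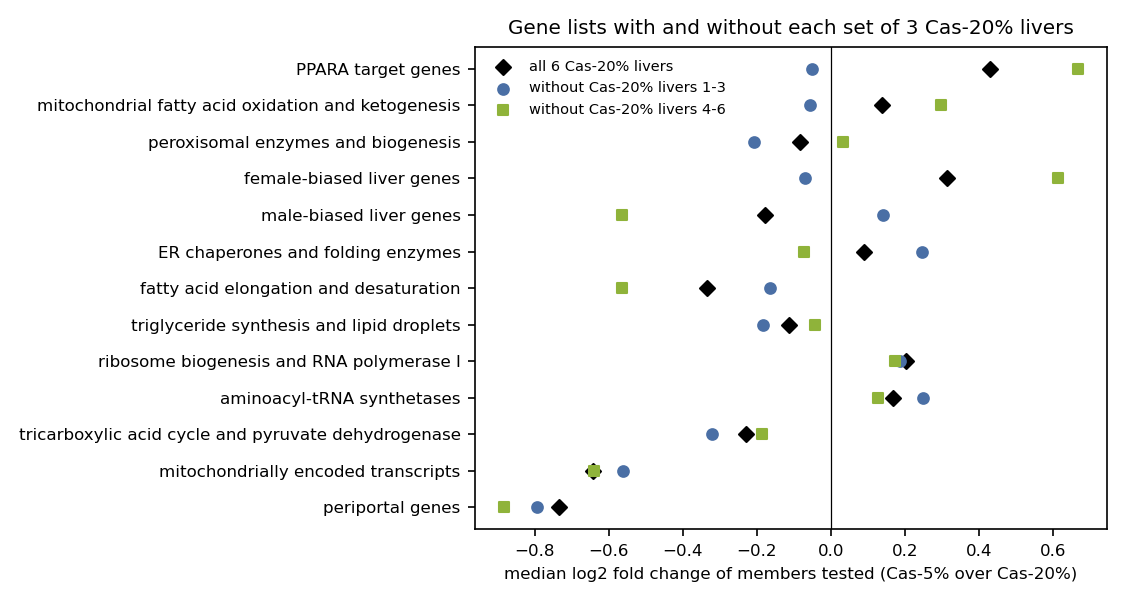
Median log2 fold change (Cas-5% over Cas-20%) of the tested members of 13 lists with all 6 Cas-20% livers (diamonds), without livers 1 to 3 (circles) and without livers 4 to 6 (squares). PPARα targets lay at 0.43, -0.05 and 0.67, whereas periportal genes lay at -0.73, -0.80 and -0.88.

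Fatty acid elongation and desaturation genes fell at 10 of 19 and rose at 0 (median -0.33), with *Fads2*, the Δ6 desaturase, at 199, 242 and 318 against 69.9, 82.2 and 94.2 (-1.57 ± 0.12). Without Cas-20% livers 1 to 3 this list had 2 higher and 7 lower, and without livers 4 to 6 it had 0 and 12. Triglyceride synthesis and lipid droplet genes fell at 14 of 38 and rose at 2, and without livers 4 to 6 they fell at 10 and rose at 8. *Gpam*, which starts glycerolipid synthesis, had 53.1, 98.6 and 226 against 21.1, 28.1 and 40.1, with fold changes of -1.19 and -2.54 without either set of livers, and *Fabp5* had 80.8, 308 and 1165 against 44.0, 59.7 and 86.6 (-1.62 and -3.68). *Plin5*, which coats lipid droplets next to mitochondria, rose from 222, 258 and 348 to 375, 419.9 and 472 (0.39 and 0.89). *Pfkfb1*, the liver form of the enzyme that makes and degrades a bisphosphate regulator of glycolysis, was at -0.91 ± 0.11. The glycolysis list as a whole was divided, 5 of 34 higher and 6 lower (5 and 5 without Cas-20% livers 4 to 6, 11 and 4 under library totals). Gluconeogenesis and glycogen genes fell at 8 of 29 and rose at 1 (3 and 4 under library totals). *Pgm3*, which was counted in this list but encodes phosphoacetylglucosamine mutase, fell by 0.79 ± 0.12 on the log2 scale. The rise was *Pck2* at 21.9, 25.8 and 31.4 against 40.9, 73.4 and 86.3.

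Phospholipid and choline genes fell at 11 of 27 and rose at 4. *Bhmt*, which remethylates homocysteine with betaine, had 10030, 12410 and 14190 on Cas-20% and 935, 1863 and 2675 on Cas-5% (-2.69 ± 0.21), and *Etnk2*, the liver ethanolamine kinase, had 2021, 2217 and 2588 against 815, 893 and 1071 (-1.26 ± 0.09). *Cept1*, which makes phosphatidylcholine and phosphatidylethanolamine, rose by 0.37 ± 0.07. Sphingolipid genes were called at 3 higher and 3 lower of 24 (2 and 3 without Cas-20% livers 1 to 3, 4 and 3 without livers 4 to 6, 5 and 2 under library totals), with the ceramide synthase *Cers2* at -0.50 ± 0.07 and the ceramidase *Acer3* at 0.57 ± 0.09.

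Bile acid genes moved in both directions, 3 of 30 higher and 8 lower (9 and 5 under library totals). *Cyp39a1*, an oxysterol 7α-hydroxylase, had 38, 56.4 and 63.4 against 139.7, 207 and 315 (2.09 ± 0.19), and *Cyp7a1*, the rate-limiting enzyme of the classic pathway, had 449, 772 and 941 against 856, 1495 and 2341 (1.14 ± 0.22). For *Cyp7a1*, 5 of 6 Cas-5% livers lay above every Cas-20% liver. *Cyp2c70*, which makes the muricholic acids of mice, had 2869, 4154 and 6095 against 1459, 1678 and 1973, and *Akr1d1*, the steroid 5β-reductase, had 854, 1142 and 1305 against 346, 538 and 731.

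Apolipoproteins and lipoprotein assembly genes fell at 12 of 22 and rose at 0 (median -0.29). *Apoa4* had 3119, 5010 and 10060 normalized counts on Cas-20% and 1243, 2037 and 2627 on Cas-5%, and *Apoc2*, the activator of lipoprotein lipase, had 75.1, 86.4 and 118 against 19.8, 33.5 and 56.9. Plasma carriers rose at 6 of 11 and fell at 1 (median 0.35), with the copper carrier *Cp* (ceruloplasmin) at 11600, 13170 and 14490 against 16440, 17820 and 19640 and *Serpina7*, the thyroxine-binding globulin, at 281, 506 and 653 against 702, 918 and 1171.

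Acute phase proteins moved in opposite directions, 6 of 22 higher and 11 lower (7 and 6 under library totals). *Orm3*, a neighbour of *Orm1*, had 13.2, 23.3 and 44.8 against 0.97, 2.92 and 4.40. *Fgl1*, fibrinogen-like protein 1, instead rose from 1710, 2068 and 2572 to 5114, 6232 and 7062 (1.54 ± 0.11), and *Itih4* rose from 5191, 5423 and 5893 to 7011, 9124 and 10320. Complement was divided at 7 higher and 7 lower of 27 (6 and 6 without Cas-20% livers 1 to 3, 3 and 8 without livers 4 to 6, 11 and 6 under library totals). *C3*, the central component, rose from 16110, 16850 and 18540 to 22480, 24030 and 27680 (0.53 ± 0.07), the lectin *Mbl1* rose by 0.36 ± 0.06, and *C9*, of the membrane attack complex, fell by 0.84 ± 0.12 on the log2 scale. The lectin pathway protease *Masp1* fell by 0.73 ± 0.16. Coagulation proteins fell at 7 of 26 and rose at 3, a majority that turned to 10 higher and 2 lower under library totals, with *Cpb2*, an inhibitor of fibrinolysis, at 3562, 3659 and 4043 against 1809, 2099 and 2705 and coagulation factor XI, *F11*, at -0.68 ± 0.10. Of the protease inhibitors, *Serpina1d* and *Serpina1b*, which are α1-antitrypsin copies, fell by 0.90 and 0.52 on the log2 scale and *Pzp*, an α2-macroglobulin relative, rose by 0.46. Among hepatokines 10 of 29 rose and 5 fell (7 and 6 without Cas-20% livers 4 to 6), and *Igfbp1*, the insulin-repressed IGF-binding protein, had 298, 464 and 877 against 1346, 2140 and 3178 (2.03 ± 0.28), whereas *Lect2* fell from 1561, 1755 and 2010 to 642, 908 and 1136.

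Sulfotransferases and N-acyltransferases fell at 12 of 22 and rose at 4 (median -0.37), *Sult5a1* falling from 82.0, 117 and 182 to 9.23, 24.5 and 55.7. Glutathione transferases fell at 7 of 21 and rose at 2, with *Gstt3* at 847, 1209 and 1432 against 339.5, 369.9 and 569 and *Gstm2* at -1.10 ± 0.11, but *Gstm1*, a close relative, at 0.54 ± 0.10. Carboxylesterases rose at 6 of 17 and fell at 2: *Ces1d* had 2227, 2885 and 4036 against 5447, 6271 and 7182, and *Ces3b* had 2758, 3352 and 4002 against 1322, 1789 and 1963. UDP-glucuronosyltransferases rose at 5 of 16 and fell at 3 (2 and 3 without Cas-20% livers 1 to 3), *Ugt2b5* by 0.74 ± 0.11 and *Ugt2b1* by -0.85 ± 0.12. Alcohol, aldehyde and aldo-keto enzymes were called at 9 higher and 11 lower of 39 (10 and 6 without Cas-20% livers 4 to 6, 17 and 5 under library totals), with the aldehyde oxidase *Aox1* at 276, 338 and 455 against 558, 676 and 735. NRF2 targets were divided, 7 of 37 higher and 8 lower (7 and 7 without Cas-20% livers 4 to 6, 14 and 3 under library totals), and *Osgin1* (621, 771 and 1058 against 1246, 1940 and 2303) and the microsomal epoxide hydrolase *Ephx1* (1144, 1586 and 1874 against 2790, 3449 and 3784) rose. *Cyp3a11*, the main steroid and drug hydroxylase of its subfamily, rose by 1.06 ± 0.13, and *Ahr*, the aryl hydrocarbon receptor, rose by 0.70 ± 0.11. Among transporters of drugs and organic ions 7 of 33 rose and 7 fell (8 and 5 without Cas-20% livers 1 to 3, 12 and 8 without livers 4 to 6, 14 and 6 under library totals), *Slc17a2* from 716, 906 and 1112 to 1493, 1845 and 2191, and the organic cation carriers *Slc47a1* (MATE1) and *Slc22a3* (OCT3) by log2 fold changes of -1.12 ± 0.08 and -1.43 ± 0.23.

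*Ghr*, the growth hormone receptor, fell from 5534, 5857 and 6317 to 3436, 4092 and 4832 (-0.49 ± 0.08). Insulin signalling genes were called at 6 higher and 6 lower of 35 (5 and 3 without Cas-20% livers 1 to 3, 4 and 4 without livers 4 to 6, 14 and 1 under library totals), *Irs2*, the insulin receptor substrate, at 154, 207 and 238 against 271, 349 and 442, *Deptor*, an mTOR inhibitor, at 0.40 ± 0.06 and the pseudokinase *Trib1* at -0.64 ± 0.10. *Foxo3*, a transcription factor held in check by insulin, fell by 0.58 ± 0.08 on the log2 scale. Sex-biased liver genes depended on the control livers. Male-biased genes were called at 2 higher and 8 lower of 25, at 6 and 4 without Cas-20% livers 1 to 3 and at 1 and 10 without livers 4 to 6. Female-biased genes were called at 6 and 6 of 22, at 4 and 7 and at 11 and 4, and at 7 and 4 under library totals. Within these lists *Cyp4a12a* (2701, 3494 and 4899 against 1344, 1731 and 2418), *C4a* (74.7, 86.9 and 102 against 22.8, 33.9 and 53.8) and the neurotrophin receptor *Ntrk2* (24.5, 43.4 and 55.7 against 0.97, 4.38 and 14.1) fell in every fit, and *Cspg5* rose from 1.99, 8.14 and 15 to 13.2, 50.3 and 76.6.

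Of 42 iron and haem genes 7 rose and 8 fell (13 and 5 under library totals). *Hjv*, the hemojuvelin coreceptor that drives hepcidin, fell from 997, 1091 and 1251 to 559, 637 and 674 (-0.81 ± 0.07), the metalloreductase *Steap2* rose by 1.04 ± 0.16, and *Blvrb*, a biliverdin reductase, rose by 0.73 ± 0.09. *Slc39a4*, a zinc importer, rose from 142, 206 and 236 to 266, 374 and 476, and the copper chaperone *Atox1* fell by 0.52 ± 0.08. Retinoid and other vitamin genes fell at 19 of 56 and rose at 4 (median -0.10), which became 13 higher and 13 lower under library totals. *Retsat*, retinol saturase, rose from 1620, 1943 and 3187 to 4134, 5142 and 5890 (1.3 ± 0.14). *Slc23a1*, the vitamin C transporter, fell from 993, 1065 and 1272 to 298, 442 and 503 (-1.39 ± 0.12), and *Rdh5*, a retinol dehydrogenase, fell from 152, 159 and 262 to 72.8, 77.8 and 101.

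Growth arrest genes were called at 6 higher and 6 lower of 30 (4 and 7 without Cas-20% livers 1 to 3, 3 and 5 without livers 4 to 6, 8 and 5 under library totals), with *Gadd45b* at 0, 6.45 and 7.97 against 28.7, 36.2 and 56.3, the CDK inhibitor *Cdkn2c* at 1.12 ± 0.22 and the antiproliferative *Btg2* at -1.27 ± 0.18. Cell cycle genes were called at 3 and 2 of 30. Autophagy and lysosome genes fell at 15 of 69 and rose at 3, a majority that turned to 22 higher and 4 lower under library totals. *Ctsl*, cathepsin L, fell from 6448, 7116 and 8042 to 4383, 5122 and 6099, and the tetraspanin *Cd63* rose from 68.7, 95.7 and 117 to 153, 214 and 272. MHC class I and antigen processing genes fell at 7 of 23 and rose at 1 (median -0.20). *H2-Q1*, a class I heavy chain, had 154, 197 and 250.2 against 25.2, 32.1 and 41.4 (-2.60 ± 0.15), and *Psmb9*, an immunoproteasome subunit, had 299, 402 and 620.0 against 162, 222 and 289.5. Interferon-stimulated genes were called at 4 of 38 higher and 3 lower (2 and 4 without Cas-20% livers 1 to 3, 3 and 3 without livers 4 to 6), 18.4% against 24.9% of all genes. *Oasl1* fell by 1.42 ± 0.17 and the RNA sensor *Ifih1* by 0.55 ± 0.10 on the log2 scale, while *Iigp1* and *Ifi27* rose by 0.38 ± 0.08 and 0.53 ± 0.11. *Ighm*, the immunoglobulin M heavy chain of B cells, fell from 133, 268 and 422 to 59.3, 66.3 and 87.3, with 2 of 9 tested lymphocyte markers lower. *Alas2*, of erythroid haem synthesis, fell by 0.67 ± 0.12, *Lum*, lumican of fibroblasts, rose by 1.03 ± 0.17 and *Stab1*, of sinusoidal endothelium, rose by 0.38 ± 0.09.

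Orm1 and Orm3, Serpina1b and Serpina1d, Hspa1b, Cyp4a12a and Cyp4a12b, Cyp2c69, C4a, the Gstm and Ugt2b genes and H2-Q1 have near-identical relatives. How reads shared between copies were counted is not given in the sources used here, so the division of counts within these families is uncertain.

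To see whether a change was particular to casein, the casein effect was set against soy restriction (Soy-10% against Soy-20% + SAA) with a test of the difference in 24 livers. Soy was lowered from 20 to 11.5% and casein from 20 to 5%, so protein source and the depth of protein restriction cannot be told apart. Methionine fell from 0.57 to 0.15 g per 100 g with casein and from 0.58 to 0.13 g against Soy-20% + SAA. Against Soy-20% it fell only from 0.22 to 0.13 g, so that control also mixes in the depth of sulfur amino acid restriction. The difference passed the test for 1089 of 12532 genes (8.69%), 401 positive (3.2%) and 688 negative (5.49%). With Soy-20% as the soy control 746 genes passed, 356 of them in the same direction in both tests (2.84%), which share the Soy-10% livers. Soy-20% + SAA livers 3 to 6 had a higher slope of counts on GC content near the 3′ end than every other library, 0.0456 in liver 3 and 0.160 to 0.182 in livers 4 to 6 against -0.0673 to 0.0408. Without them 296 genes passed, and 174 (1.39%) passed all 3 tests, which share the casein and Soy-10% livers. None of the 3 left out Cas-20% livers 1 to 3 or 4 to 6, so dependence on that split was not tested. Periportal genes held 12 of 29 that passed with both controls and 10 that passed all 3, and amino acid transporters held 8 and 6 of 31. Of the 137 genes described here 28 passed all 3. They had been named by their casein effect in the same livers, which favours a pass, so their share cannot be set against that of all genes.

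*Igfbp1*, *Ttn* and *Cd63* rose on Cas-5% and had no called change on Soy-10% against Soy-20% + SAA (log2 fold changes of 2.03 and -0.38, 3.15 and -0.57, and 1.21 and -0.29). For *Cd63* the log2 fold change of Soy-10% over Soy-20% was 0.04. The casein effect on *Igfbp1* was 2.67 without Cas-20% livers 1 to 3 and 1.57 without livers 4 to 6. The difference between the effects was 2.40 for *Igfbp1* (adjusted p = 0.00149), 3.72 for *Ttn* (0.000417) and 1.5 for *Cd63* (0.000417) in edgeR. *Orm1* changed by -3.38 with casein and by -0.34 with soy, a difference of -3.04 ± 0.35 (adjusted p = 2.35e-05). *Nnmt* and *Lepr* moved in the same direction with both proteins and farther with casein, by -4.95 against -1.70 and by 3.76 against 1.26.

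**Figure D5:**
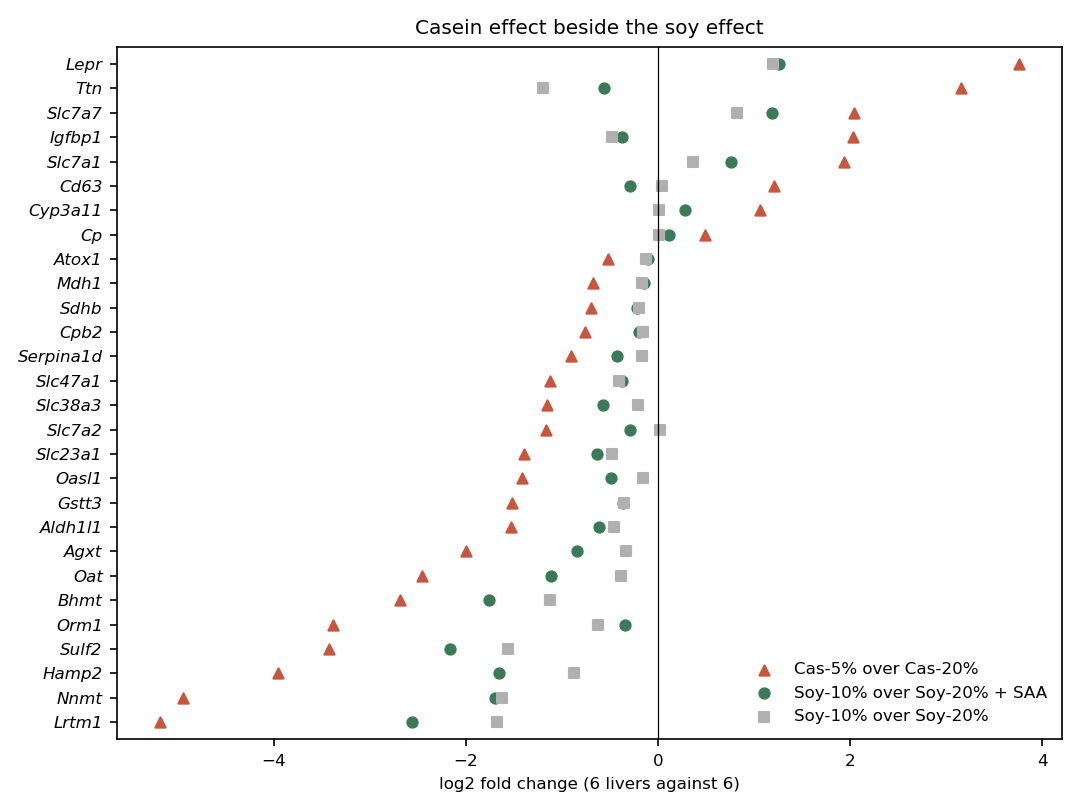
Log2 fold changes (6 livers against 6) of the 28 described genes whose casein effect differed from the soy effect with both soy controls and without Soy-20% + SAA livers 3 to 6; triangles are Cas-5% over Cas-20%, circles Soy-10% over Soy-20% + SAA and squares Soy-10% over Soy-20%, the latter 2 sharing the Soy-10% livers. *Igfbp1* lay at 2.03 with casein and at -0.38 and -0.48 with soy.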

How the data were processed

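RNA of 30 mouse livers was sequenced with Lexogen QuantSeq on a NextSeq 500 and processed by the authors with the Bluebee pipeline. The aligner, counting software and its use of strand are not given in the sources used here, and the build was GRCm38. The deposited raw counts, whole reads per gene, were used for every test. A deposited table of signal values, which are counts divided by DESeq2 size factors by the authors (DESeq2 1.30 and R 4.0.3 in the submitters' processing notes), gave the levels per liver. Both tables hold 14173 genes. Groups were taken from the labels, which do not pair livers across diets.

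Genes passing filterByExpr (minimum count 10) were compared with edgeR 4.0.16 in R 4.3.3 by the quasi-likelihood F test after TMM scaling, with Benjamini-Hochberg adjustment and a threshold of 0.05. Counting error is small at these library totals beside the spread between livers, except for genes with few reads. Alternatives were DESeq2 1.42.0, its size factors, other filters, each liver left out, a replicate block, all 30 livers in 1 fit and the 3′ GC slope of each library as a covariate. Library totals alone, the Cas-20% livers in sets of 3 and Soy-20% + SAA livers 3 to 6 were added after the data were seen. Python 3.11.15 and scipy 1.17.1 gave exact permutation tests.

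The genes and the 71 lists were chosen with earlier results of these data known. Named genes were the 12 largest protein-coding rises and 12 largest falls with a mean normalized count of at least 20 in 1 diet, no overlap between diets and a call in every fit, and up to 2 rises and 2 falls per list that passed the same count, adjusted p and fits. Genes of the control livers' split were named after their values were seen. Where a list had none, its member with the smallest adjusted p was taken, and those are not described. Of 193 genes so given 137 are described. Promoter windows were from RefSeq. In data simulated for the casein comparison on 12076 genes, 84 of 99 genes changed by a log2 fold change of 1 and 51 of 98 changed by 0.5 were recovered, with 8 false calls. For the difference of effects on 12532 genes, 133 of 198 were recovered with 11 false calls. Both simulations left all other genes unchanged, balanced rises and falls and drew genes independently. Far more genes were called in the data, so these rates need not hold there.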

Additional observations from a re-analysis of the deposited data

Results flagged for a closer look

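A liver stood far from the other 5 of its diet in 20 of 274 groups of values checked, where chance flags about 1 in 20 groups. Cas-20% liver 2 was the far one for *Edem1* (1389 normalized counts), *Aldh1b1* (1971), *Aldh1l1* (5365), *Tbx3* (281.6), *Rdh5* (262) and *Btg2* (163). In the other Cas-20% livers the far values were *Mbl1* at 1729 and *Retsat* at 3187 in liver 6, and *Orm3* at 44.8 and *Apoa4* at 10060 in liver 5. On Cas-5% they were *Gstt3* at 568.6, *Ntrk2* at 14.1 and *Ahr* at 409 in liver 6, *Orm1* at 1337 and *Rhbg* at 60.1 in liver 5, *1810046K07Rik* at 4.80 in liver 4, *Mbl1* at 1816 and *Ighm* at 87.3 in liver 3, and *Cdkn2c* at 88.0 and *Cps1* at 5683 in liver 1. Each of these genes was called without the liver in question, which the rule for naming genes required, so this is no further check.

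The casein effect differed from the soy effect (Soy-10% against Soy-20% + SAA) for 28 of the genes described, by a test of the difference in edgeR that also passed with Soy-20% as the soy control and without Soy-20% + SAA livers 3 to 6. These tests share the Cas-5%, Cas-20% and Soy-10% livers, and none left out Cas-20% livers 1 to 3 or 4 to 6. The genes had been named by their casein effect in the same livers, which favours a difference. The difference, on the log2 scale with its SE, was positive for *Lepr* (2.49 ± 0.46), *Ttn* (3.72 ± 0.58), *Cp* (0.37 ± 0.10), *Igfbp1* (2.40 ± 0.42), *Cd63* (1.5 ± 0.23), *Slc7a7* (0.85 ± 0.21), *Slc7a1* (1.17 ± 0.36) and *Cyp3a11* (0.77 ± 0.23). Among plasma and matrix proteins it was negative for *Hamp2* (-2.31 ± 0.57), *Sulf2* (-1.26 ± 0.37), *Orm1* (-3.04 ± 0.35), *Cpb2* (-0.57 ± 0.10) and *Serpina1d* (-0.48 ± 0.11). Among enzymes it was negative for *Nnmt* (-3.25 ± 0.43), *Sdhb* (-0.48 ± 0.10), *Mdh1* (-0.54 ± 0.10), *Agxt* (-1.17 ± 0.19), *Bhmt* (-0.94 ± 0.29), *Gstt3* (-1.16 ± 0.26), *Aldh1l1* (-0.92 ± 0.13) and *Oat* (-1.35 ± 0.24). It was also negative for the carriers *Slc47a1* (-0.75 ± 0.12), *Slc23a1* (-0.77 ± 0.18), *Slc7a2* (-0.88 ± 0.16), *Slc38a3* (-0.59 ± 0.11) and *Atox1* (-0.42 ± 0.13), and for *Lrtm1* (-2.63 ± 0.63) and *Oasl1* (-0.93 ± 0.27).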

How the results depend on the processing

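Under DESeq2 3054 genes were called, and leaving out 1 liver gave 2601 (without Cas-5% liver 2) to 2888 against 3008. Library totals alone gave 4661. Without Cas-20% livers 1 to 3 the count was 2606, without livers 4 to 6 it was 2602, and with the GC covariate it was 2474. The replicate block gave 2656 for casein and 1272 for the difference of effects. Same-numbered livers of the 2 casein diets correlated at -0.14 to 0.10 and 0 of 6 correlated best with their own number. These values gave no sign of pairing by number, but an order of collection or processing behind the numbers was not tested. The count of genes whose casein and soy responses differed was less stable. It went from 1089 to 719 when liver 4 of the Soy-20% + SAA group was left out and to 1941 when liver 1 was, to 296 with livers 3 to 6 of that diet left out, and to 1587 (1200 positive and 387 negative) under library totals. The genes given by the rule and described kept their direction and call in each fit of the casein comparison because the rule required it. This was not asked of those named for the split of the Cas-20% livers (*Mt1*, *Angptl4*, *Arntl*, *Usp2* and *Ppp1r3b*). The count called in a list moved by more than 1.5 times in 103 combinations of list and setting and by less in 1459.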
